A study of Mus musculus with 15 samples.

Results

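Tryptophan degradation along the kynurenine route was followed through the mRNA of 10 genes in mouse liver tumours and normal liver. These genes, Tdo2, Ido2, Afmid, Kmo, Kynu, Aadat, Haao, Acmsd, Qprt and Nadsyn1, were chosen by name as enzymes of tryptophan catabolism and NAD synthesis, out of 23284 gene symbols in the count table, and all 10 were found. The choice was made with earlier results of the same counts in view, and no value threshold was part of it. The members' counts, fold changes and adjusted p-values below are therefore a description of these libraries and no independent evidence.

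The study asked how loss of Hmgb1 from liver epithelium bears on chemically induced liver tumours. The tumours, labelled hepatocellular carcinoma, were induced with diethylnitrosamine (DEN), a liver mutagen, at 25 mg/kg on day 15, followed by carbon tetrachloride (CCl4), a liver toxin, at 0.5 µl/g once a week in corn oil, from week 8 and for 15 weeks. There were 6 tumours from Hgmb1fl/fl mice, called floxed tumours here, in which the loxP-flanked gene is intact, and 6 tumours from Hgmb1Dhep mice, called Hmgb1-deleted tumours, in which Cre under the Albumin promoter removes Hmgb1 from the liver epithelium. Other liver cells keep the gene. The third group held 3 normal livers of C57Bl/6 mice for which no treatment is named. Their age, the strain of the floxed mice, the litter and whether tumours came from the same mouse are not given, so p-values reflect the spread of these libraries, which may be technical. No treated liver outside a tumour was among the samples, so tumour growth, treatment and strain cannot be told apart in any comparison with normal liver.

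The liver breaks down most dietary tryptophan by the kynurenine pathway. Tdo2 and Ido2 open the indole ring, Afmid releases kynurenine, and Kmo, Kynu and Aadat compete for kynurenine or pass it on. Haao then forms an unstable semialdehyde that Acmsd sends to full oxidation. Without Acmsd it closes by itself to quinolinate, from which Qprt and Nadsyn1 lead to NAD.

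Library totals ran from 20191452 to 30929442 counts for floxed tumours, from 18973246 to 26293378 for Hmgb1-deleted tumours and from 23193714 to 26997782 for normal livers. Levels are given as CPM, counts scaled to a common library size after adjusting the libraries to each other with TMM factors (composition factors of edgeR), and a count of 0 would allow up to 0.11 to 0.169 CPM (3 counts, counting error only). Every member was counted in each of the 15 libraries, with a lowest count of 79. Hmgb1 was at 9.59 to 17.8 CPM in Hmgb1-deleted and at 23.3 to 31.8 CPM in floxed tumours (log2 fold change -0.90 ± 0.14 SE, edgeR adjusted p = 0.00509), and normal livers lay at 19.1 to 30.7 CPM. The hepatocyte markers, 8 genes with Alb among them, summed to 114270 to 291081 CPM in the floxed group and 75694 to 177564 CPM in the Hmgb1-deleted group. In normal livers the sum was 116555 to 145075 CPM. Alb alone made up most of these sums, with means of 173357 (floxed), 101139 (Hmgb1-deleted) and 95750 CPM (normal), so they say little of the other markers. When the tumour groups were compared, edgeR called none of the tested markers of hepatocytes (8), macrophages (8), lymphocytes (7), endothelium (6), stellate cells (7) and bile ducts (5). At an unadjusted p under 0.05, 2 hepatocyte markers and 1 endothelial marker were lower in Hmgb1-deleted tumours, and DESeq2 called 2 hepatocyte markers lower. Against normal liver, floxed tumours had 2 hepatocyte markers higher (Apoa1 and Hpx) and 2 lower (Cps1 by 8.36-fold and Tat by 3.59-fold). They also had 2 macrophage, 3 lymphocyte, 1 endothelial, 1 stellate and 3 bile duct markers higher. Hmgb1-deleted tumours had 2 hepatocyte markers lower, again Cps1 (6.83-fold) and Tat (2.72-fold). In that group 2 macrophage, 4 lymphocyte, 1 endothelial, 2 stellate and 1 bile duct markers were higher, and 1 stellate marker was lower. The summed bile duct markers reached 1766 CPM in floxed and 6113 CPM in Hmgb1-deleted tumours against at most 79.0 CPM in normal liver. Spp1 made up most of these sums, with highest values of 1685 and 6024 CPM, while Krt19 (means of 2.05, 1.59 and 1.60 CPM in floxed tumours, Hmgb1-deleted tumours and normal liver) and Krt7 were called in no comparison. Kidney markers did not exceed 0.269 CPM. The part of these other cells in the results below was not tested, and in bulk tissue fewer cells of a type and less RNA per cell cannot be told apart.

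Since most members were lower in tumours, their promoters were read for shared short motifs. RefSeq on the build GRCm38.p6, a later build than that of the counts, gave 250 bases before the start site for 8 members, all but Ido2 and Kynu. The promoters of Aadat, the member with the largest fold change between the tumour groups, of Afmid, whose differences ran the same way, and of Tdo2, whose levels overlapped between the tumour groups, are printed 5′ to 3′ on the gene's strand, with motif matches in capitals. They lie at chr8:60505874-60506123 (plus strand), chr11:117825669-117825918 (plus strand) and chr3:81975729-81975978 (minus strand).
Aadat: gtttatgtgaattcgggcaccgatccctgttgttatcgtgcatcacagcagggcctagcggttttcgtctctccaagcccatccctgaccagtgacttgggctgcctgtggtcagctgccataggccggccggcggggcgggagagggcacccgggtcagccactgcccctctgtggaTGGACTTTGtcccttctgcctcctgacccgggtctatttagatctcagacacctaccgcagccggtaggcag
Afmid: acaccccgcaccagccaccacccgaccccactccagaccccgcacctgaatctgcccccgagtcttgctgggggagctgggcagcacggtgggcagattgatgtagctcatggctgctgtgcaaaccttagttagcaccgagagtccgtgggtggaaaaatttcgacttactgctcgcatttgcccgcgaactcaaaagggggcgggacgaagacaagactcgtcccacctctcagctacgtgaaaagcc
Tdo2: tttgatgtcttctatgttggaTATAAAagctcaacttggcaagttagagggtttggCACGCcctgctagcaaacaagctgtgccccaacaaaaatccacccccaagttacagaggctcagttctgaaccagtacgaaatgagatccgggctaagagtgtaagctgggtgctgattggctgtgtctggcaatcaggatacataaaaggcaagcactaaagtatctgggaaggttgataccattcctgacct
The motifs were searched on both strands as fixed words, with N for any base, and did not overlap each other. Variant forms of a site were not counted. The exact letters CAAAGTCCA, a form of the HNF4 site, occurred in Aadat alone among the 8 members and in 0.384% of 32851 promoters. In Aadat they lay on the reverse strand 72 to 64 bases before the start. The letters TATAAA of the TATA box occurred in Tdo2, 229 to 224 bases before the start, and in 12.4% of all promoters. Matches were taken anywhere in the 250 bases, so this one is not shown to be a working TATA box. The XRE core GCGTG, the letters bound by the Ahr receptor, occurred in Tdo2 (194 to 190, reverse strand) and Haao and in 28.2% of all promoters. The HNF1 half-site GTTAAT was found in Haao alone and in 6.43% of all promoters, and the C/EBP site TTGCNCAA in no member and in 2.61%. No motif was common to the 8 promoters, and a match in this window is not a measured binding site.

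In floxed tumours most of the pathway was lower than in normal liver. Of the 10 members, 8 were lower and 1, Acmsd, was higher by edgeR's quasi-likelihood test at an adjusted p under 0.05, and Nadsyn1 was not called. Of all 13784 genes tested in that comparison 48.7% were called, 24.9% higher and 23.8% lower. In Hmgb1-deleted tumours 5 members were lower than in normal liver and none was higher, where 34.7% of 13784 genes were called, 18.1% higher and 16.6% lower. The count of 0 higher members was also 0 at an unadjusted p under 0.05 and in DESeq2. Both comparisons use the same 3 normal livers. Between the tumour groups, Afmid, Kynu and Aadat were higher with the deletion and no member was called lower, beside 7.78% of 13433 genes called, 4.45% higher and 3.33% lower. At an unadjusted p under 0.05, and in DESeq2, 1 member, Acmsd, was lower there. The median log2 fold change of the members was -1.53 in floxed tumours against normal liver, -0.94 in Hmgb1-deleted tumours against normal liver and 0.35 between the tumour groups. Over all tested genes these medians were 0.06, 0.05 and 0.02. With plain library totals as the scale these medians were 0.15, 0.33 and 0.20. The share of called genes that were higher was then 73.7% instead of 52.1% in Hmgb1-deleted tumours against normal liver and 79.3% instead of 57.2% between the tumour groups, and no member changed direction.

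**Figure D1:**
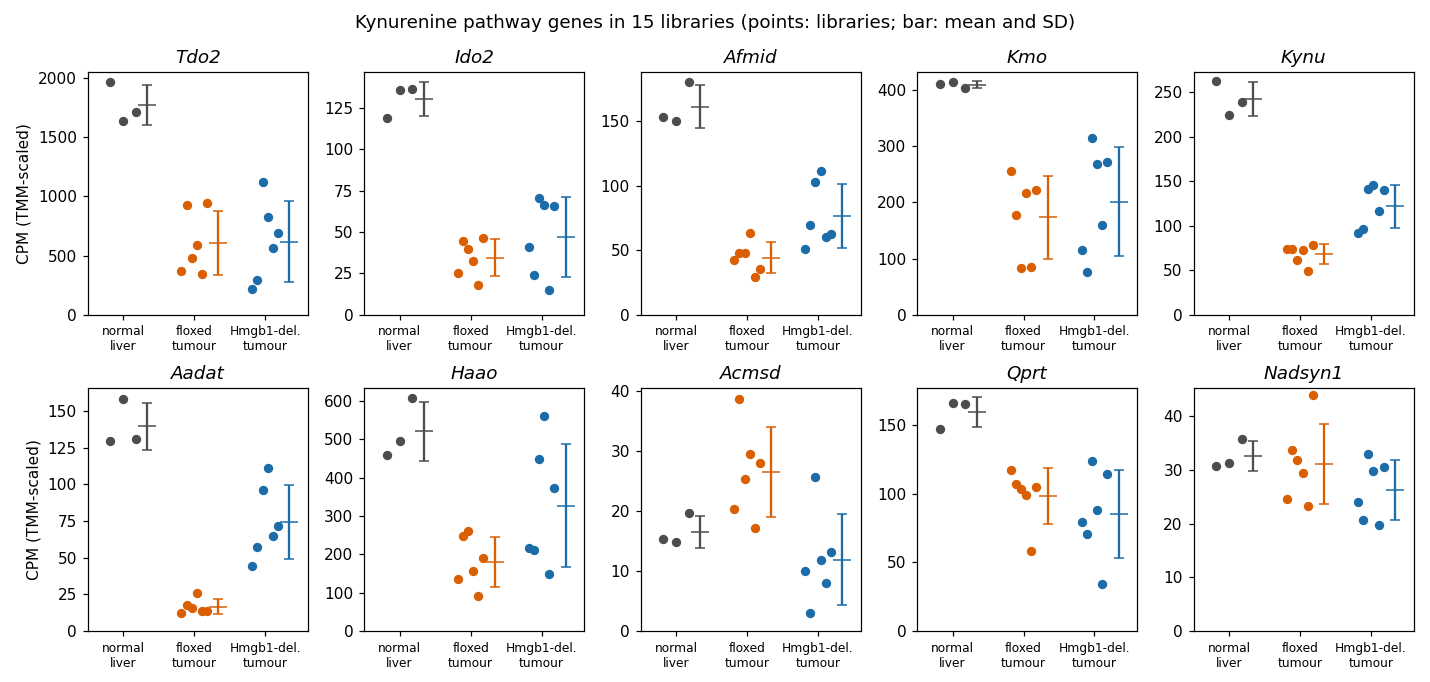
CPM of each member in 15 libraries, with normal livers in grey, floxed tumours in orange and Hmgb1-deleted tumours in blue; points are libraries and bars are the mean and SD of 3, 6 and 6 libraries. For Kynu and Aadat the groups form 3 steps without overlap, and for Acmsd the floxed tumours have the highest mean, 26.6 CPM.

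The first and rate-setting step is the ring opening by tryptophan dioxygenase, Tdo2, the most abundant member per length in normal liver and floxed tumours. In normal liver Tdo2 was at 516 CPM per kilobase of exon, above Haao at 361 and Kmo at 103, and the other members lay between 77.9 (Qprt) and 6.11 (Acmsd). In Hmgb1-deleted tumours Haao had the higher mean, 225.9 ± 111 against 180.3 ± 98.7 CPM per kilobase for Tdo2 (SD, n = 6), and their spreads overlapped. Tdo2 was at 1965, 1637 and 1714 CPM in the 3 normal livers. Floxed tumours ranged from 343 to 945 CPM with a median of 534, and Hmgb1-deleted tumours from 218 to 1124 CPM with a median of 626. All 12 tumours lay below the 3 normal livers, and the tumour groups overlapped over most of their range. Tdo2 was 2.90-fold lower in floxed tumours (log2 -1.54 ± 0.34 SE, edgeR adjusted p = 0.00397) and 2.84-fold lower in Hmgb1-deleted tumours (-1.51 ± 0.44, adjusted p = 0.027) than in normal liver. Between the tumour groups the difference was 0.04 ± 0.40 (95% interval -0.83 to 0.91). The difference of Hmgb1-deleted tumours from normal liver was no longer called without any 1 of the 3 normal livers (adjusted p 0.0693 to 0.0954).

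Ido2 encodes a second enzyme for the same reaction. It was at 119, 136 and 136 CPM in normal livers, 17.9 to 46.3 CPM (median 36.2) in floxed tumours and 14.8 to 70.8 CPM (median 53.1) in Hmgb1-deleted tumours. No tumour reached a normal liver, and the tumour groups overlapped. The log2 fold changes against normal liver were -1.92 ± 0.26 in floxed tumours (edgeR adjusted p = 0.000219) and -1.46 ± 0.42 in Hmgb1-deleted tumours (adjusted p = 0.0246). The second was lost without normal liver 1, 2 or 3 (adjusted p 0.0682 to 0.0806). Ido1, the inducible dioxygenase of immune and other cells, was not counted in any normal liver, reached at most 0.224 CPM in a tumour and was too low to test.

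Afmid encodes the formamidase that yields free kynurenine. Normal livers were at 153, 150 and 181 CPM, floxed tumours at 29.2 to 63.2 CPM (median 44.98) and Hmgb1-deleted tumours at 51.0 to 112 CPM (median 66.1). Both tumour groups lay wholly below normal liver, and 3 steps can be seen in the means, 44.3 ± 11.8, 76.3 ± 24.9 and 161 ± 16.8 CPM (SD, n = 6, 6 and 3), with overlap between the tumour groups. Afmid was 3.63-fold lower in floxed and 2.09-fold lower in Hmgb1-deleted tumours than in normal liver (edgeR adjusted p = 7.61e-05 and 0.00925). With the deletion it was 1.75-fold higher than in floxed tumours (log2 0.81 ± 0.23, adjusted p = 0.0466). That call was lost in 13 of 20 alternatives, among them the omission of a single floxed tumour (1, 2, 3, 5 or 6) or a single Hmgb1-deleted one (2, 3, 4 or 6) (adjusted p 0.0521 to 0.118). Exons of Afmid overlap those of Gm20708 on the same strand, which was not used here, and of Tk1 on the other strand, which had 3700 counts over the 15 libraries, and the strand setting of the counting is not given in the sources used here.

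Kmo, Kynu and Aadat draw on kynurenine in different ways. Kmo, the mitochondrial monooxygenase that makes hydroxykynurenine, was at 410, 414 and 403 CPM in normal livers, 83.7 to 255 CPM (median 197) in floxed tumours and 76.2 to 314 CPM (median 214) in Hmgb1-deleted tumours. Both tumour groups were below normal liver in each library and overlapped each other almost fully. The log2 fold changes against normal liver were -1.24 ± 0.34 in floxed tumours (edgeR adjusted p = 0.0125) and -1.02 ± 0.39 in Hmgb1-deleted tumours, where the adjusted p of 0.0663 missed the threshold. Without Hmgb1-deleted tumour 3 the latter was called (-1.18, adjusted p = 0.0408). The 2 tumour groups differed by 0.23 ± 0.38 (95% interval -0.58 to 1.05).

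Kynu encodes kynureninase, which cuts alanine from kynurenine and hydroxykynurenine. Normal livers were at 262, 225 and 240 CPM, Hmgb1-deleted tumours at 91.9 to 146 CPM (median 129) and floxed tumours at 49.3 to 78.3 CPM (median 73.2). The 3 groups did not overlap, and within floxed tumours the coefficient of variation was 15.96%, the lowest of the 10 members in that group. Kynu was 3.54-fold lower in floxed and 1.96-fold lower in Hmgb1-deleted tumours than in normal liver (edgeR adjusted p = 1.54e-05 and 0.00388), and these calls held in all 15 and 17 alternatives. Compared with floxed tumours it was 1.81-fold higher with the deletion (log2 0.86 ± 0.16, adjusted p = 0.00824). That call was lost in 1 of 20 alternatives, the removal of Hmgb1-deleted tumours 3, 4 and 6 together (0.57, adjusted p = 0.0675).

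Aadat, the mitochondrial aminotransferase that turns kynurenine into kynurenic acid, had the largest fold change of the 10 members in floxed tumours against normal liver and between the tumour groups. It was at 129, 158 and 131 CPM in normal livers. The 6 floxed tumours lay at 12.6 to 26.04 CPM with a median of 14.7, and the 6 Hmgb1-deleted tumours at 44.6 to 111 CPM with a median of 68.3. Again the groups formed 3 separate steps, and the lowest Hmgb1-deleted tumour was above the highest floxed tumour. Aadat was 8.39-fold lower in floxed tumours than in normal liver (log2 -3.07 ± 0.22, edgeR adjusted p = 5.82e-06) and 1.86-fold lower in Hmgb1-deleted tumours (-0.90 ± 0.25, adjusted p = 0.0212). With the deletion it was 4.55-fold higher than in floxed tumours (2.19 ± 0.24, adjusted p = 0.000878), at 1.74 to 2.36 and called in each of 20 alternatives. The smaller difference from normal liver was lost without normal liver 1, 2 or 3 (adjusted p 0.0566 to 0.097).

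**Figure D2:**
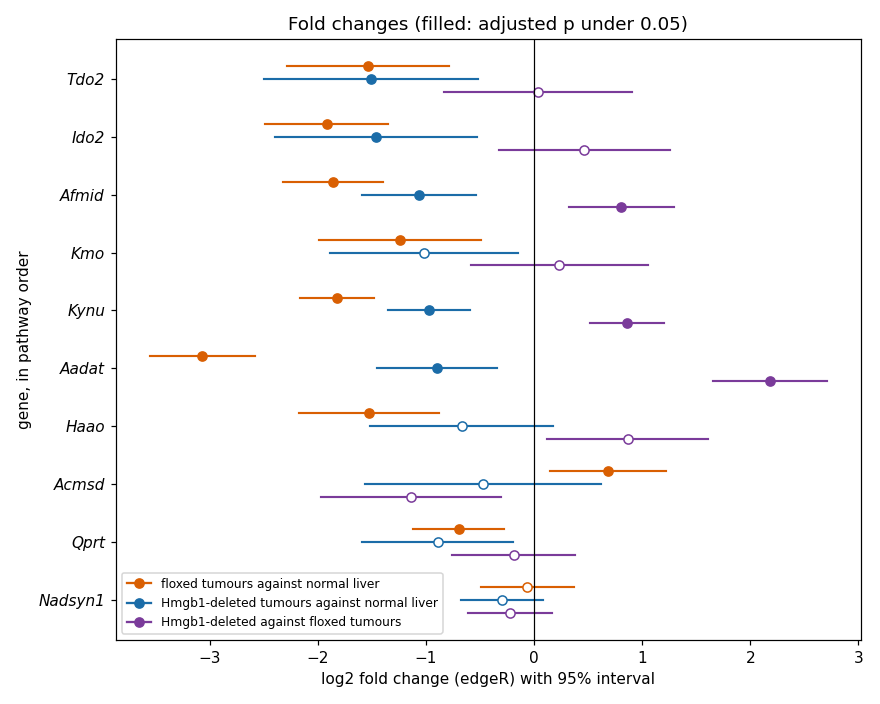
Log2 fold changes with 95% intervals from edgeR for the 10 members in pathway order, in 3 comparisons; filled points have an adjusted p under 0.05. Aadat spans the widest range, from -3.07 in floxed tumours against normal liver to 2.19 between the tumour groups, and Nadsyn1 is filled in none.

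Haao encodes the dioxygenase that opens hydroxyanthranilate to the unstable semialdehyde at which the pathway forks. Normal livers were at 460, 495 and 607 CPM and floxed tumours at 90.8 to 260 CPM (median 174). Hmgb1-deleted tumours spread from 148 to 560 CPM (median 295) and so reached from floxed levels into the normal range. Haao was 2.88-fold lower in floxed tumours than in normal liver (log2 -1.53 ± 0.29, edgeR adjusted p = 0.00179). Hmgb1-deleted tumours were called neither against normal liver (-0.67 ± 0.38, adjusted p = 0.188) nor against floxed tumours (0.87 ± 0.34, adjusted p = 0.141). The latter was called with plain library totals as the scale (1.04, adjusted p = 0.0172) and without Hmgb1-deleted tumours 2 and 5 (1.13, adjusted p = 0.0484), and it was 0.09 (adjusted p = 0.906) without 3, 4 and 6.

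Acmsd, the decarboxylase that draws the semialdehyde away from NAD synthesis, ran against the rest in floxed tumours. It was at 15.4, 14.8 and 19.6 CPM in normal livers, 17.2 to 38.8 CPM (median 26.7) in floxed tumours and 2.94 to 25.7 CPM (median 10.9) in Hmgb1-deleted tumours. Floxed tumours overlapped normal liver only through floxed tumour 5, and Hmgb1-deleted tumours overlapped both groups. Acmsd was 1.61-fold higher in floxed tumours than in normal liver (log2 0.68 ± 0.24, edgeR adjusted p = 0.0387). That call was lost in 9 of 15 alternatives (adjusted p up to 0.226), including the omission of floxed tumour 2, 3, 4 or 6 or of any 1 normal liver. With the deletion Acmsd was 2.21-fold lower than in floxed tumours (-1.14 ± 0.39), which missed the threshold (adjusted p = 0.0894). It passed in 4 of 20 alternatives, for example without Hmgb1-deleted tumour 3 (-1.52, adjusted p = 0.0254) and in DESeq2 (-1.16, adjusted p = 0.031).

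Qprt, which turns quinolinate into a precursor of NAD, was at 147, 166 and 165 CPM in normal livers, 58.2 to 118 CPM (median 104) in floxed tumours and 34.5 to 124 CPM (median 83.8) in Hmgb1-deleted tumours. Both tumour groups lay below normal liver and overlapped each other. The log2 fold change against normal liver was -0.70 ± 0.19 in floxed tumours (edgeR adjusted p = 0.0122) and -0.89 ± 0.31 in Hmgb1-deleted tumours. The latter sat at the threshold (adjusted p = 0.0509) and was called in 10 of 17 alternatives, and the former was lost in 1 fit of all 15 libraries (adjusted p = 0.0543). The tumour groups differed by -0.19 ± 0.26 (95% interval -0.76 to 0.38). Nadsyn1, the synthetase of the last step, was at 30.7, 31.3 and 35.8 CPM in normal livers, 23.2 to 44.0 CPM (median 30.6) in floxed tumours and 19.8 to 32.9 CPM (median 27.0) in Hmgb1-deleted tumours. These 3 ranges overlapped and no comparison called it, with a log2 fold change of -0.06 (95% interval -0.49 to 0.37) in floxed tumours against normal liver.

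Acmsd and Qprt stand on the 2 arms of the fork, and the ratio of their counts in a library needs no scaling. There were 0.0891 to 0.119 Acmsd counts per Qprt count in normal livers, 0.174 to 0.363 in floxed tumours and 0.0419 to 0.231 in Hmgb1-deleted tumours. Every floxed tumour was above every normal liver, and 4 of the 6 Hmgb1-deleted tumours lay below every floxed tumour. The mean log2 ratio was -3.27 ± 0.21 (SD, n = 3) in normal liver, -1.90 ± 0.36 (SD, n = 6) in floxed tumours and -2.99 ± 0.88 (SD, n = 6) in Hmgb1-deleted tumours. Floxed tumours exceeded normal liver by 1.37 (p = 0.0119 by a two-sided exact permutation test, which cannot go lower with 6 against 3, and 0.0179 adjusted over the 3 pairs of groups). Hmgb1-deleted tumours fell below floxed tumours by 1.09 on the log2 scale (difference -1.09, exact permutation p = 0.0108, adjusted p = 0.0179). Against normal liver they differed by 0.28 (exact permutation p = 0.643). Without any 1 normal liver the adjusted p of floxed tumours against normal liver was 0.0536 in the exact permutation test, with differences of 1.26 to 1.47. The pair of genes was picked from the members with earlier results known. Hmgb1-deleted tumour 2, with 79 Acmsd counts, had the lowest ratio, and without it the difference from floxed tumours was -0.77 (exact permutation, adjusted p = 0.0292). Exons of Acmsd overlap those of 2900009J06Rik on the other strand, which had 93 counts over 15 libraries.

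**Figure D3:**
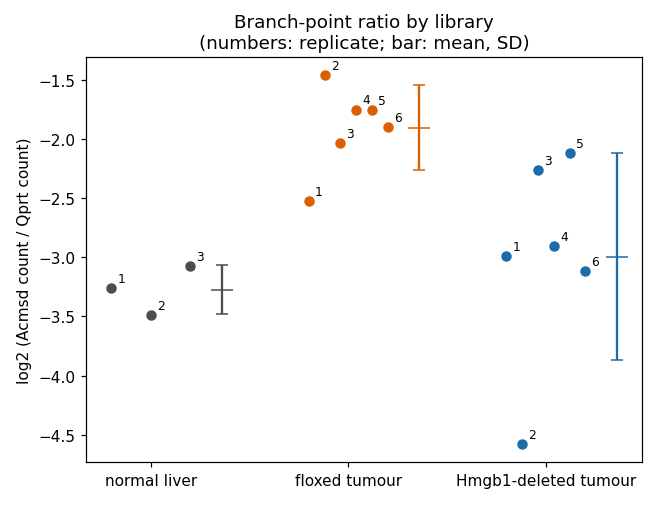
Log2 ratio of Acmsd to Qprt counts in each library, by group, with replicate numbers; bars are the mean and SD of 3 normal livers, 6 floxed and 6 Hmgb1-deleted tumours. Floxed tumours sit above all normal livers, and Hmgb1-deleted tumours spread over a wider range with number 2 lowest at -4.58.

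The tumours of 1 group differed from each other in most members at once. Relative to the mean of the normal livers, the median log2 level over the 10 members was -0.46, -0.57 and -0.69 in Hmgb1-deleted tumours 3, 4 and 6, and -1.52, -1.32 and -1.39 in numbers 1, 2 and 5. For 9 of 10 members, all but Afmid, the 3 highest Hmgb1-deleted tumours were numbers 3, 4 and 6. An earlier analysis of these counts had placed these 3 nearest to normal liver over all genes, so this is not a separate observation. The medians and this order rest on TMM-scaled CPM. The TMM factors, by which CPM is divided, were 0.92, 0.98 and 0.93 in numbers 3, 4 and 6. In numbers 1, 2 and 5 they were 1.15, 1.37 and 1.35. By plain library totals the order of Kynu differed, with 3127 of 19893357 counts in number 5 and 2654 of 20456124 in number 3. How far the split depends on the scale was not tested. Among floxed tumours the medians ran from -2.33 in number 5 to -1.14 in number 2, and number 5 was the lowest for 8 of 10 members. This too is on the TMM scale, where the factor was 1.26 in number 5 and 0.81 to 1.04 in the other floxed tumours. By plain library totals Tdo2 was lower in number 1 (7383 of 20394637 counts) than in number 5 (8752 of 20191452). With Hmgb1-deleted tumours 3, 4 and 6 removed, all 10 members were called lower than in normal liver, and so were 3079 genes in all, against 2295 with the 6 tumours. Since the removed tumours were the ones nearest to normal liver, a lower remainder follows from their choice. With 2 and 5 removed 4 members were called, and the calls over all genes under this removal are not given here. Without any 1 normal liver 2 members were called, Afmid and Kynu. Calls over all genes fell below 4787 there as well, as given in the closing section. These counts are therefore no result about the members alone.

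**Figure D4:**
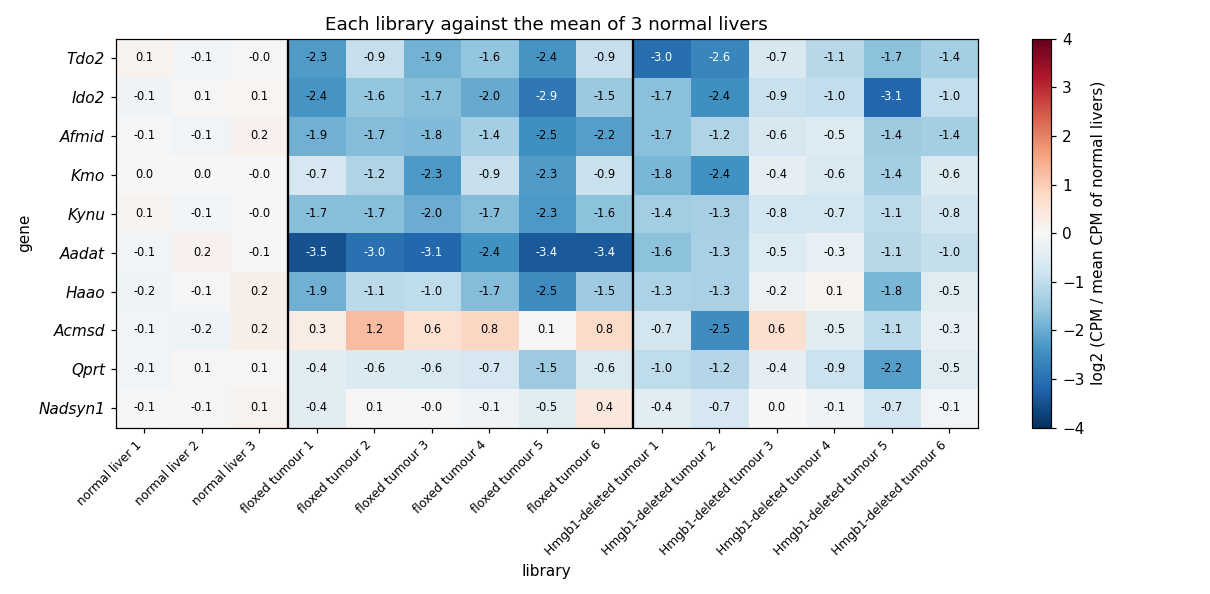
Log2 of each library's CPM over the mean CPM of the 3 normal livers, for 10 members in rows and 15 libraries in columns, blue below and red above that mean. Aadat is darkest in the floxed tumours, Acmsd is the one member with red cells in most floxed tumours, and Hmgb1-deleted tumours 3, 4 and 6 are the palest tumours.

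Within groups the members rose and fell together. After the group means were taken off log2(CPM + 1), Pearson's r over the 15 libraries was above 0 for all 45 pairs of members, with a median of 0.61 and a range of 0.31 to 0.91. These points share library preparation, scaling and the cell make-up of each tumour, and the values are a description. The same figures over pairs of other genes were not computed, so they do not set the members apart from other genes. The non-member genes closest to Tdo2 by this measure, among 10145 genes with a mean of at least 5 CPM, were Pnpla8 (r = 0.95), Ngef (0.94) and Rab5b (0.94). Closest to Kynu were Cyp3a13 (0.92), Atp5a1 (0.92) and Ndufv1 (0.91), and closest to Acmsd were Cps1 (0.93), Sdha (0.91) and Gm2a (0.90). For Qprt they were Serpina1a, Tpd52l1 and Fads1 (0.94 each).

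Among other enzymes that handle kynurenine, Ccbl1 (Kyat1), a second kynurenine aminotransferase, was lower with the deletion where Aadat was higher when the tumour groups were compared, and both were called lower in Hmgb1-deleted tumours than in normal liver. It was at 231 to 259 CPM in normal livers, 188 to 515 CPM (median 398) in floxed tumours and 57.2 to 202 CPM (median 109) in Hmgb1-deleted tumours. Only floxed tumour 5, at 188 CPM, lay within the Hmgb1-deleted range. Ccbl1 was 3.30-fold lower in Hmgb1-deleted than in floxed tumours (log2 -1.72 ± 0.32, edgeR adjusted p = 0.00907), and each of 20 alternatives kept the call. Of 5 tested genes in this list (Ccbl1, Ccbl2, Got2, Aldh8a1 and Gcdh), 3 were lower in floxed tumours than in normal liver, 2 were lower in Hmgb1-deleted tumours than in normal liver, and 1, Ccbl1, was lower between the tumour groups. The 2 lower calls of Hmgb1-deleted tumours against normal liver, Ccbl1 and Aldh8a1, were lost without any 1 normal liver (adjusted p 0.07 to 0.107). Gcdh, glutaryl-CoA dehydrogenase on the route to full oxidation, had log2 fold changes of -1.89 ± 0.19 (adjusted p = 3.55e-05), -0.89 ± 0.41 (adjusted p = 0.114) and 1.01 ± 0.32 (adjusted p = 0.0732) in the 3 comparisons.

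The salvage route makes NAD from nicotinamide or nicotinate without tryptophan. Its genes were listed together with those that phosphorylate NAD, such as Nadk. Of 5 tested genes in this list, 4 were lower in floxed tumours than in normal liver by edgeR. These were Naprt1, Nmnat1, Nmnat3 and Nadk, by -0.60 to -0.80 on the log2 scale. The call of Naprt1 was lost without floxed tumour 2 or 4 or any 1 normal liver (adjusted p 0.0576 to 0.0909), that of Nmnat1 without normal liver 2 (0.0628), and that of Nmnat3 with plain library totals (0.0531). Nampt, its rate-limiting enzyme, was at 54.6 ± 3.82 CPM in normal liver, 56.6 ± 10.9 CPM in the floxed group and 109 ± 63.9 CPM in Hmgb1-deleted tumours (SD, n = 3, 6 and 6), and number 5 was the highest at 235 CPM. Hmgb1-deleted tumours had 0 of 5 called in either comparison. At an unadjusted p under 0.05, 1 of 5 was higher against normal liver and 4 of 5 were higher against floxed tumours, and DESeq2 called 1 higher in each.

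Among 9 genes that consume NAD or nicotinamide, 6 were lower and 1, Cd38, was higher in floxed tumours than in normal liver by edgeR. In Hmgb1-deleted tumours 2 were lower than in normal liver, and 2, Aox3 and Sirt3, were higher than in floxed tumours. Sirt3, the mitochondrial deacetylase, was at 100 ± 8.70 CPM in normal liver, 30.1 ± 4.90 CPM in the floxed group and 51.1 ± 16.0 CPM in Hmgb1-deleted tumours, and the tumour groups did not overlap (log2 0.78 ± 0.19, adjusted p = 0.0258). That call was lost without floxed tumour 1, Hmgb1-deleted tumour 3 or number 4 of that group (adjusted p 0.0536 to 0.0613), and without Hmgb1-deleted tumours 3, 4 and 6 (0.42, adjusted p = 0.146). Aox3, an aldehyde oxidase that can oxidise nicotinamide derivatives, was at 1109 CPM in normal liver, 75.7 CPM in floxed and 217 CPM in Hmgb1-deleted tumours, and its tumour difference (1.54 ± 0.44, adjusted p = 0.0489) was kept in 7 of 20 alternatives. It was 0.59 (adjusted p = 0.45) without Hmgb1-deleted tumours 3, 4 and 6. Nnmt, which methylates nicotinamide, was 6.01 to 12.8 CPM in floxed tumours and fell by 2.78 on the log2 scale from normal liver. In Hmgb1-deleted tumours it was 57.5, 73.1 and 78.7 CPM in numbers 3, 4 and 6 and 5.85, 13.6 and 5.56 CPM in numbers 1, 2 and 5 (4.01-fold higher than floxed tumours in the fit, SE 0.63 on the log2 scale, adjusted p = 0.0704).

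Tryptophan that escapes the kynurenine pathway can become tryptamine or serotonin. Inmt, which methylates tryptamine, was at 76.6 to 203 CPM (median 79.7) in floxed tumours and 249 to 1779 CPM (median 1063) in Hmgb1-deleted tumours, without overlap. Normal livers were at 525, 618 and 1231 CPM, within the Hmgb1-deleted range. Inmt was 10.1-fold higher in Hmgb1-deleted than in floxed tumours (log2 3.34 ± 0.49, edgeR adjusted p = 0.0042), called in each of 20 alternatives. Ddc, the decarboxylase that makes tryptamine and serotonin, was at 65 ± 30.4 CPM against 23.0 ± 11.98 CPM (1.52 ± 0.38, adjusted p = 0.027). That call was lost when a single library was omitted (floxed 2 or 3, Hmgb1-deleted 4 or 6: adjusted p 0.052 to 0.0616), and without 3, 4 and 6 together (adjusted p = 0.106). Of 4 tested genes of this branch, 3 were lower in floxed tumours than in normal liver and 2 were higher in Hmgb1-deleted than in floxed tumours. Hmgb1-deleted tumours had 0 called against normal liver by edgeR, 2 lower at an unadjusted p under 0.05 and 1 lower in DESeq2. Tph1, a first enzyme of serotonin synthesis, had no count in the 15 libraries.

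Of 7 tested amino acid carriers, 2 were lower and 1 higher in floxed tumours than in normal liver, 3 were lower and 1 higher in Hmgb1-deleted tumours than in normal liver, and 1 was lower between the tumour groups. Slc16a10, a carrier of aromatic amino acids, was at 129 ± 22.2 CPM in normal liver, 28.7 ± 5.91 CPM in the floxed group and 45.5 ± 26.6 CPM in Hmgb1-deleted tumours. Its log2 fold changes against normal liver were -2.16 ± 0.18 (edgeR adjusted p = 1.26e-05) and -1.50 ± 0.44 (adjusted p = 0.0269), and the second was lost without any 1 normal liver (adjusted p 0.0668 to 0.104). Slc43a1, a carrier of large neutral amino acids, was at 15.2 ± 8.38 CPM in floxed and 3.08 ± 2.67 CPM in Hmgb1-deleted tumours (-2.30 ± 0.63, adjusted p = 0.0429). That call was lost when a single library was omitted (floxed 1, 2, 3 or 6, Hmgb1-deleted 1, 2, 4 or 6: adjusted p 0.0617 to 0.0884).

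Kynurenine is a ligand of the receptor Ahr, whose targets include Cyp1a1, Cyp1b1 and Tiparp. Of 7 tested genes in this list, 3 were lower and 1 higher in floxed tumours than in normal liver, and 3 were lower and 2 higher in Hmgb1-deleted tumours. Nqo1, a quinone reductase with other regulators besides Ahr, was at 6.48 ± 1.14 CPM in normal liver, 63.1 ± 34.1 CPM in floxed and 69.0 ± 30.6 CPM in Hmgb1-deleted tumours. Cyp1b1 was the other higher call in Hmgb1-deleted tumours (log2 1.86 ± 0.33, edgeR adjusted p = 0.00425), kept in each of 17 alternatives. It was not called in floxed tumours (1.66 ± 0.71, adjusted p = 0.0739). Its means were 0.88 CPM in normal liver, 2.75 in floxed and 3.15 in Hmgb1-deleted tumours. Cyp1a1 and Tiparp were called by edgeR in no comparison. Cyp1a2, a hepatocyte cytochrome, was at 922 ± 18.4, 85.0 ± 41.5 and 233 ± 199 CPM. Ahr itself was lower by -1.06 ± 0.25 (edgeR adjusted p = 0.00591) and -0.81 ± 0.26 (adjusted p = 0.0386) in the 2 tumour groups, and the second was lost in 9 of 17 alternatives. The other lower calls in Hmgb1-deleted tumours, Arnt and Cyp1a2, were lost in 8 and 7 of 17 alternatives (adjusted p up to 0.334 and 0.0999), and that of Arnt in floxed tumours in 8 of 15 (adjusted p up to 0.288). With the deletion against floxed tumours 0 of 7 were called by edgeR, with 1 higher and 1 lower at an unadjusted p under 0.05 and in DESeq2. The lists of other pathway genes were drawn up with earlier results of these counts known, and their counts are read beside the shares of all genes given above.

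**Figure D5:**
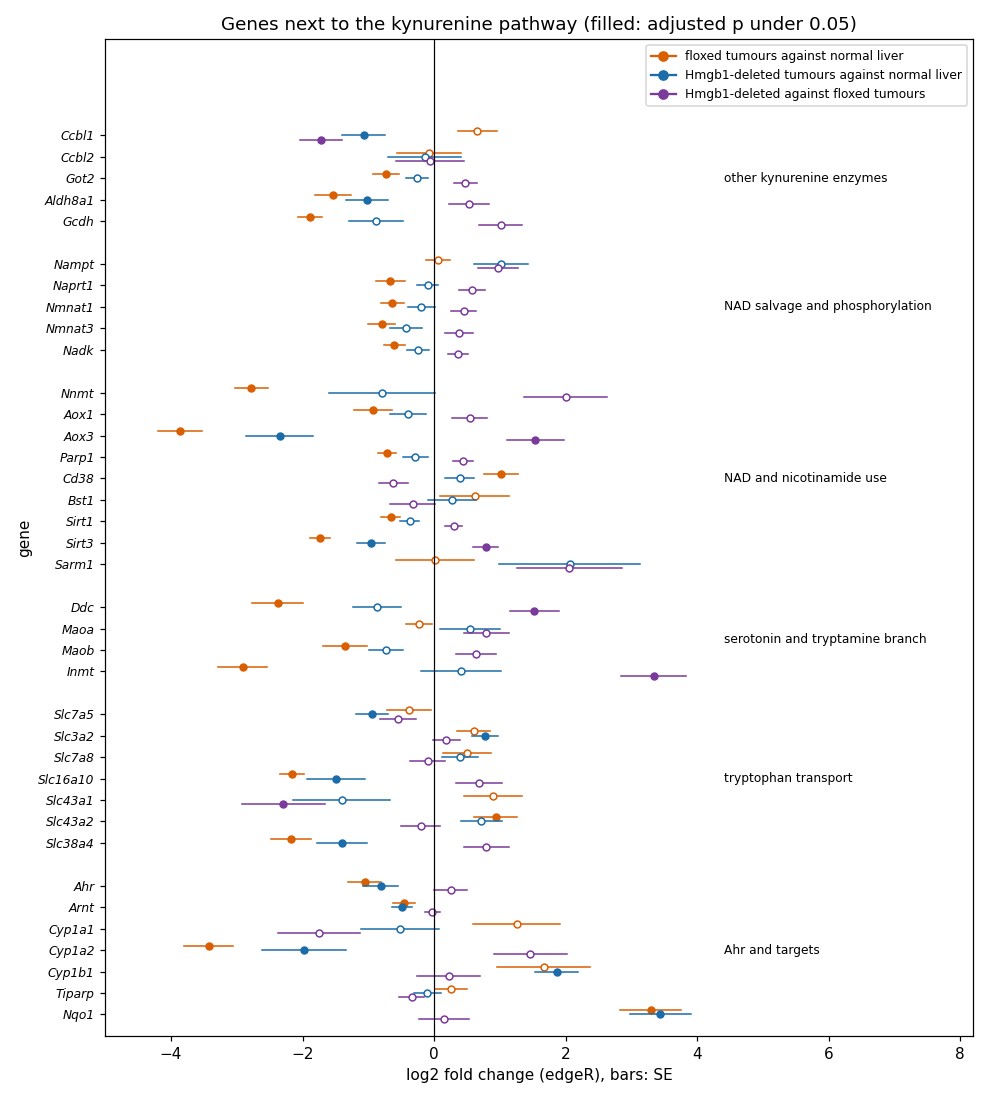
Log2 fold changes with standard errors from edgeR for the tested genes of 6 lists next to the pathway, in 3 comparisons; filled points have an adjusted p under 0.05. Between the tumour groups Inmt is highest at 3.34, and Slc43a1 (-2.30) and Ccbl1 (-1.72) are the filled points below 0.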

How the data were processed

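Per the labels' protocols, libraries were made with Illumina's TruSeq kit from poly-A RNA of 12 tumours and 3 normal livers. The authors deposited raw read counts per gene symbol, not normalized. The build was mm9 and the tools HTSeq 0.6.1, Bowtie2 2.2.4, TopHat2 2.1.0 and bcl2fastq 1.8.4, per the submitters' processing notes. For annotation, strand and multiple matches the setting is not given in the sources used here.

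Groups and replicate numbers came from the labels. In R 4.3.3 each pair of groups was fitted with edgeR 4.0.16 (filterByExpr, TMM, robust quasi-likelihood F test, group as the only term), with Benjamini-Hochberg adjustment over all tested genes and a threshold of 0.05. Standard errors come from the F statistic, and CPM is TMM-scaled over 15 libraries and given as mean ± SD. The Acmsd:Qprt ratio used log2 of counts plus 0.5 and an exact permutation test. Counts of 2 libraries of 1 group differed by a chi-square of at least 26.3 times its degrees of freedom, more than repeated sequencing of 1 library would give. Whether 2 libraries came from the same tumour or mouse cannot be told from this. The fit was tested on simulated data.

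Members, lists, ratio and alternatives were chosen with earlier results of these data known. Named were all members, up to 4 genes of smallest p per other list and comparison, the likest genes of 4 members, and Hmgb1. Ido1, Tph1, Cd38 and single cell type markers were named after their values were seen. Of 47 genes in the 6 other lists 45 matched, 4 by an older symbol. GENCODE and RefSeq tables of GRCm38.p6 gave exon lengths, overlaps and promoters only. Alternatives were RLE factors, library totals, no filter, DESeq2 1.42.0, 1 joint fit, the replicate block, a pseudocount of 5, left-out libraries, and fits lacking tumours 3, 4 and 6 or 2 and 5 of the Hmgb1-deleted group, which stood apart in an earlier analysis. Those for Hmgb1 and other genes were added after seeing the data.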

Additional observations from a re-analysis of the deposited data

Results flagged for a closer look

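Qprt in floxed tumour 5 was at 58.2 CPM, below the other 5 floxed tumours, of which the nearest was at 99.4 CPM. The gap took 0.69 of the group's range on the TMM scale. The TMM factor of floxed tumour 5, 1.26, was the highest of the floxed group. Its Qprt count was 1485 of 20191452, against 2642 of 30929442 in floxed tumour 6. Whether the gap would be marked with plain library totals was not tested. Among 22 groups of values examined this way, for the 10 members and Hmgb1 in 2 tumour groups, this was the only one, and chance alone marks about 1 in 20 groups. Floxed tumour 5 was also the lowest floxed tumour for 8 of 10 members on the TMM scale.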

How the results depend on the processing

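Of 520 values of the members under alternatives, 450 kept their direction and side of the threshold, 36 were no longer called, 22 became called and 12 changed sign. Each sign change was in a difference that was not called: Tdo2 between the tumour groups (-0.041 with the replicate block, -0.77 without Hmgb1-deleted tumours 3, 4 and 6, and -0.22 to 0.22 with 1 library omitted, below 0 for floxed 1, 3 and 5 and Hmgb1-deleted 3 and 4), Ido2 (-0.38) and Kmo (-0.57) without 3, 4 and 6, Qprt (0.039) without 2 and 5, and Nadsyn1 in floxed tumours against normal liver (-0.21 to 0.011 with 1 library omitted, above 0 for floxed 1 and 5). The cause was not tested. Between the tumour groups 1045 genes were called, 2063 with DESeq2, 1629 in 1 fit of 15 samples and 589 to 1054 with 1 library left out, the lowest without Hmgb1-deleted tumour 4. In Hmgb1-deleted tumours against normal liver 4787 genes were called, and 2113 to 4912 with 1 library left out (2113, 2227 and 3109 without normal liver 1, 2 or 3). Without Hmgb1-deleted tumours 3, 4 and 6, 6462 genes and 10 members were called there, and with 1 library left out 2 to 7 members. The ratio of Acmsd to Qprt in floxed tumours against normal liver was 1.26 to 1.49 with 1 library left out, and its adjusted p was 0.0536 without any 1 normal liver, where fewer samples limit the exact test. Replicate numbers showed no clear pairing of the samples. Between the tumour groups same-numbered libraries deviated together with r of -0.27 to 0.23, and 2 of 6 numbers matched best. Against normal liver 2 of 3 numbers matched best for floxed tumours (r of -0.12 to 0.14). For Hmgb1-deleted tumours 1 of 3 did (0.03 to 0.17). Whether same-numbered libraries shared a batch or litter cannot be told from this. With the replicate block 860, 6718 and 3234 genes and 3, 9 and 5 members were called, with Tdo2 lost (adjusted p = 0.0514) and Qprt gained (0.0418) in Hmgb1-deleted tumours against normal liver. The lowest count of any member was 79, for Acmsd in Hmgb1-deleted tumour 2; the part of counting error in the spread was not tested.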
